A study of Mus musculus with 12 samples.

Results

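Interleukins and their receptors were followed in E0771 cells, a mouse mammary tumor line, after exposure to an activated form of cyclophosphamide. Members were taken by name: every gene whose symbol begins with IL and a number was kept, which gave 83 of the 24197 genes in the deposited table. These comprised 37 ligands, 40 receptor chains and 4 antagonists or decoys, with Il4i1, an amino acid oxidase, and Il1bos, an antisense transcript of Il1b, caught by name alone. RNA was sequenced from 12 libraries in 4 groups of 3, each library from its own culture. Control cells received vehicle and were collected at 72 hours. In the 4HC group, 4-hydroperoxy-cyclophosphamide, which gives the active metabolite without liver metabolism, was present at 4.2 μmol/L for 4 hours and the cells were collected 68 hours after its removal. In the 4HC with anti-IFNAR1 group, an antibody to a chain of the type I IFN receptor (clone MAR1-5A3, 10 μg/mL) was present with the drug and again until collection. The IFNβ group received recombinant mouse IFNβ (27.8 U/mL) over 4 hours. The sources differ on when these cells were taken. The sample tag and the paper give 2 hours after removal, which was followed here, and the treatment protocol text gives 68 hours.

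The values are the authors' group means in FPKM, which are fragments counted on a transcript, corrected for its length and for library size. No values per library were analysed, so no spread, interval or test can be given, and whether any difference exceeds the variation between cultures was not tested. The differences below compare means only. All comparisons against control share the control libraries, and both 4HC groups enter the comparison with each other. No group with antibody alone or with a control antibody was included, so blockade of the receptor cannot be told apart from the presence of an antibody. In bulk RNA, fewer cells making a transcript and less transcript per cell cannot be told apart either.

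Interleukins are secreted signalling proteins that act through paired receptor chains. IL-6 family ligands signal through gp130 (Il6st), IL-2 family ligands through the common gamma chain (Il2rg), IL-1 family ligands through receptors with TIR domains, and IL-17 family ligands through IL-17 receptor chains. Most ligands are made chiefly by leukocytes or stressed epithelium, and several receptor chains are present on tumor epithelium.

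Interferon-stimulated genes were read as a check on the treatment labels, although they cannot tell 4HC cells from IFNβ cells. Isg15, Irf7, Ifit1, Usp18 and Mx1, all interferon-stimulated genes, were higher past 2-fold with 4HC and with IFNβ, and all 5 were lower with antibody than with 4HC alone. Mean Isg15 was 5.11 FPKM in control, 117.6 with 4HC, 19.4 with antibody and 171.7 with IFNβ. None of 6 housekeeping genes (Actb, Gapdh, Hprt, Ppia, Rplp0 and Tbp) differed past 2-fold in any of the 4 comparisons. The cell label was only partly borne out by epithelial markers. Mean Krt8 was 70.2 FPKM in control, whereas Epcam (0.0357 FPKM), Cdh1 (0.0463) and Krt18 (0.0287) were near 0 and Elf5 was listed at 0. Vim, a mesenchymal marker, had a mean of 785 FPKM in control. Of 11 fibroblast and endothelial markers, 5 reached 0.1 FPKM in a group. These 5 were Col1a1 (26.7 FPKM in control, the highest of the 11), Col3a1 (11.2), Pdgfra (7.05), Pdgfrb (5.27) and Pecam1 (0.656). The others, among them Col1a2 (0.0367 in control) and Dcn (0.0113), stayed under 0.1 FPKM in every group. Among 18 leukocyte markers matched, 13 stayed under 0.1 FPKM in every group. Cd3e, Ncr1 and Cpa3 were listed at 0 throughout, and the pan-leukocyte gene Ptprc had means between 0.000897 and 0.0114 FPKM.

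Most interleukin genes were silent or nearly so in these cells. Of the 83, 34 reached 0.1 FPKM in at least 1 group (41.0%, beside 54.2% of all genes), 36 had means above 0 but under 0.1 FPKM throughout, and 13 were listed at 0 in every group. Only 14 reached 1 FPKM. Nearest the limit on the inside were Il1rn (highest mean 0.109 FPKM), Il19 (0.138) and Il1f9 (0.160), and on the outside Il7 (0.0893), Il3ra (0.0745) and Il17c (0.0719). The 13 at 0 included the T-cell cytokines Il4, Il17a and Il22 and the receptor chains Il10ra and Il23r. Canonical inflammatory ligands Il1a and Il1b were also almost unread, with highest means of 0.0229 and 0.00588 FPKM. The number listed at 0 differed by group: 38 members in control, 21 with 4HC, 19 with antibody and 35 with IFNβ. The same order of control and IFNβ above both 4HC groups held over all genes, of which 8327, 6339, 6408 and 8516 were listed at 0 in control, 4HC, antibody and IFNβ cells.

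The highest levels were those of receptor chains, although the typical receptor was as low as the typical ligand. Of 40 receptor chains 17 reached 0.1 FPKM, as did 13 of 37 ligands, and the median of the highest means was 0.0322 FPKM for receptors and 0.0346 FPKM for ligands. Highest means reached 17.1 FPKM among the receptors, of which 11 were at 1 FPKM or more in a group, and 2 of the 37 ligands (Il34 and Il11) passed that level. FPKM corrects for transcript length, so these levels can be set side by side between genes.

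**Figure D1:**
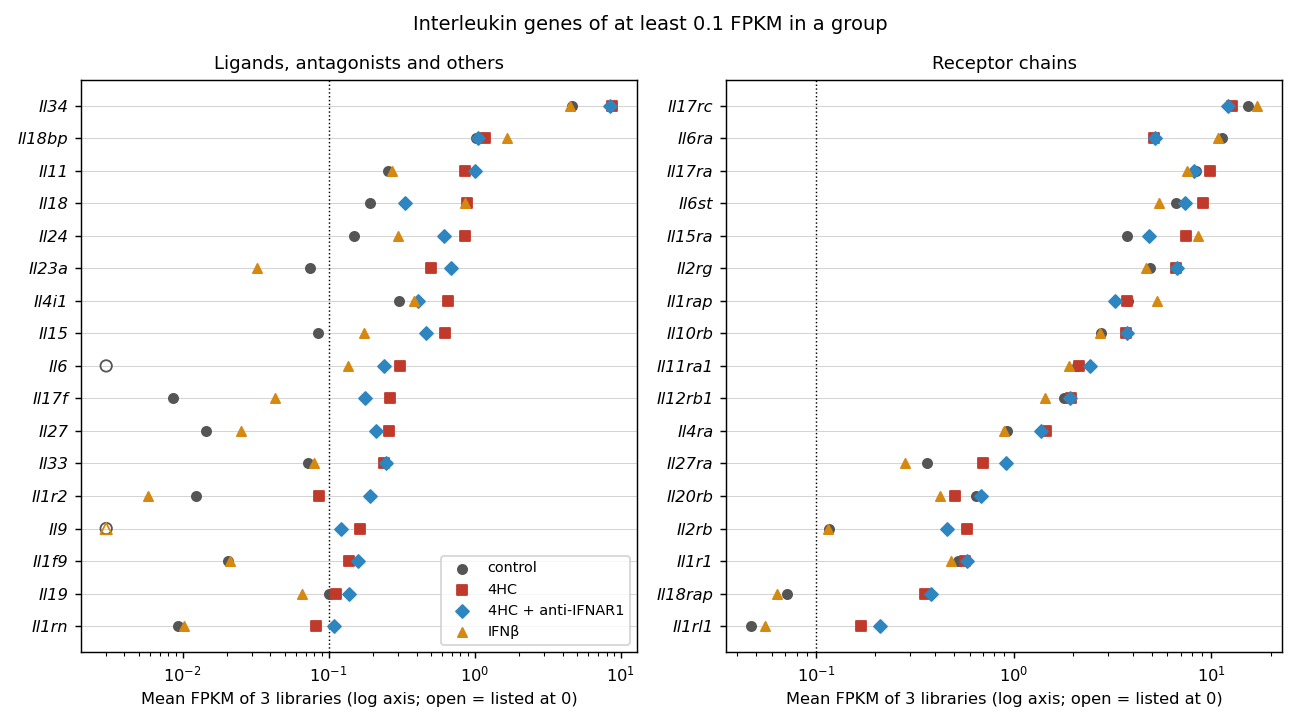
Mean FPKM (log axis) of the 34 interleukin genes that reached 0.1 FPKM (dotted line) in a group, with 1 symbol for the mean of each group and open symbols for means listed at 0. Ligands with low control means, such as Il6 (0 in control, 0.307 with 4HC) and Il17f (0.00865 and 0.263), lie far apart by group, while the 4 means of receptors such as Il17rc stay within 12.2 to 17.1 FPKM.

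With 4HC, 11 interleukin genes were higher past 2-fold than in control and 1 was lower. The 11 were Il6, Il9, Il11, Il15, Il17f, Il18, Il23a, Il24, Il27, Il2rb and Il18rap, and the lower one was Il6ra. Here a difference is the log2 ratio of mean FPKM plus 0.1, taken for genes of at least 0.1 FPKM in either group, and it understates the ratio of low genes. The 11 made up 34.4% of the 32 members compared, beside 7.25% of all 12843 genes higher, and the 1 lower stood beside 0.662% of all genes lower. The median log2 difference was 0.89 for the members and 0.03 for all genes. With 1 FPKM added to each mean in place of 0.1 the count higher was 0, with 0.01 FPKM it was 15, and with a minimum of 0.5 FPKM it was 6. Members that passed the limit only through their level with 4HC had to be higher, and 10 did so, 7 of them past 2-fold. Among the 22 members already at 0.1 FPKM in control, 4 were higher (18.2%, beside 4.31% of all such genes) and 1 was lower.

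The higher genes were all of low level. Where the larger mean lay between 0.1 and 1 FPKM, 11 of 19 members were higher past 2-fold (57.9%, beside 19.6% of all genes of that level), whereas none of the 13 members at 1 FPKM or more was (beside 3.95% of all genes). By class, 9 of 13 ligands compared and 2 of 17 receptor chains were higher, beside 7.25% of all genes. Of these, Il6, Il9, Il15, Il17f, Il23a, Il27 and Il18rap passed the limit only through 4HC, where they had to be higher. Of the ligands at 0.1 FPKM in control, Il11, Il18 and Il24 were higher, and Il19 and Il34 were within 2-fold. Over all 83 members with no limit on level, the 4HC mean was above the control mean in 55, below it in 8 and 0 in both groups in 20. The 4HC mean was thus above control in 66.3% of members and below it in 9.64%, beside 46.9% and 28.5% of all genes.

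**Figure D2:**
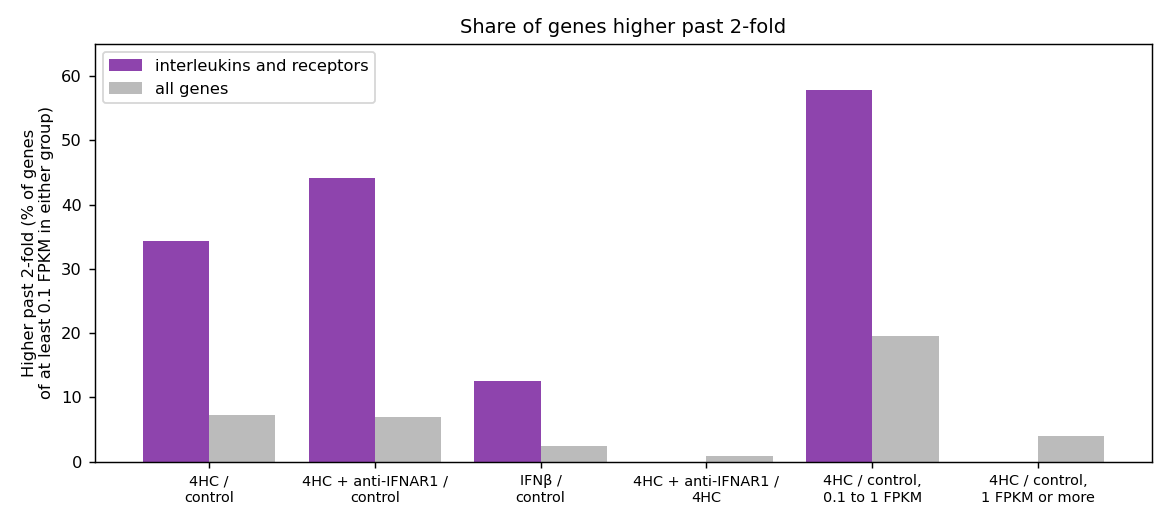
Share of genes (%) higher past 2-fold among genes of at least 0.1 FPKM in either group, for interleukins and receptors (purple bars) and all genes (grey bars), in the 4 comparisons and in 4HC against control split by level. The members' bar reaches 34.4% in 4HC against control and 57.9% for genes of 0.1 to 1 FPKM, and it is at 0 for genes of 1 FPKM or more.

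Among IL-6 and IL-12 family ligands, Il6, Il11, Il23a and Il27 were all higher with 4HC. Il6, which encodes the main inducer of the acute phase response, was listed at 0 in control, 0.307 FPKM with 4HC, 0.241 with antibody and 0.136 with IFNβ. No fold can be given against a mean of 0. Mean Il11, for a cytokine of platelet precursors and fibrosis, was 0.255 FPKM in control, 0.857 with 4HC, 1.01 with antibody and 0.274 with IFNβ, a log2 difference of 1.43 for 4HC against control. Mean Il23a, for the p19 chain of IL-23, was 0.0752 FPKM in control, 0.506 with 4HC, 0.694 with antibody and 0.0322 with IFNβ (log2 difference 1.79 with 4HC). It was the member highest with antibody relative to 4HC alone among these 4 ligands. Mean Il27, for the p28 chain of IL-27, was 0.0144 FPKM in control, 0.258 with 4HC, 0.213 with antibody and 0.0253 with IFNβ. Its log2 difference with 4HC was 1.65, and the plain ratio of means was 17.9.

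Both ligands of the common gamma chain group that passed the limit were higher. Il15 encodes a growth factor of NK cells and memory CD8 T cells that is presented on its own alpha receptor. Its mean was 0.0849 FPKM in control, 0.632 with 4HC, 0.461 with antibody and 0.174 with IFNβ, and the log2 difference with 4HC was 1.98, the largest among members above 0 in control. Il9, for a mast cell and T-cell growth factor, was listed at 0 in control and with IFNβ, and its mean was 0.163 FPKM with 4HC and 0.121 with antibody.

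Il18 was the IL-1 family ligand past 2-fold. Its product is stored as a precursor that caspase-1 cleaves, and it stimulates IFNγ production by T and NK cells. Mean Il18 was 0.193 FPKM in control, 0.891 with 4HC, 0.333 with antibody and 0.863 with IFNβ, so the 4HC and IFNβ means were close and the antibody mean lay near control. The log2 difference was 1.76 with 4HC and 1.72 with IFNβ. The epithelial alarmins Il33 and Il1f9 (IL-36γ) were just under 2-fold on the scale used. Mean Il33 was 0.0718 FPKM in control, 0.240 with 4HC, 0.246 with antibody and 0.0796 with IFNβ. Mean Il1f9 was 0.0204, 0.139, 0.160 and 0.0212 FPKM in the same order. The log2 differences with 4HC were 0.98 for Il33 and 0.99 for Il1f9, and the plain ratios of means were 3.34 and 6.83. With 0.01 FPKM added in place of 0.1, the log2 differences were 1.61 and 2.30, past 2-fold.

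The IL-10 and IL-17 families each had 1 ligand past 2-fold. Mean Il24, for a cytokine first described in differentiating melanoma cells, was 0.149 FPKM in control, 0.853 with 4HC, 0.618 with antibody and 0.298 with IFNβ, a log2 difference of 1.94 with 4HC. Il19, its neighbor on chromosome 1, had means of 0.101, 0.113, 0.138 and 0.0657 FPKM and differed by 0.08 on the log2 scale with 4HC. Il17f, for a ligand that makes epithelium produce neutrophil attractants, had means of 0.00865 FPKM in control, 0.263 with 4HC, 0.178 with antibody and 0.0430 with IFNβ. Its log2 difference with 4HC was 1.74 and the plain ratio of means 30.4, the gap being due to the 0.1 FPKM added to both means. Il34, which encodes an alternative ligand of the CSF-1 receptor, was the ligand of highest level. Its mean was 4.61 FPKM in control, 8.71 with 4HC, 8.49 with antibody and 4.52 with IFNβ, a log2 difference of 0.90 with 4HC.

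**Figure D3:**
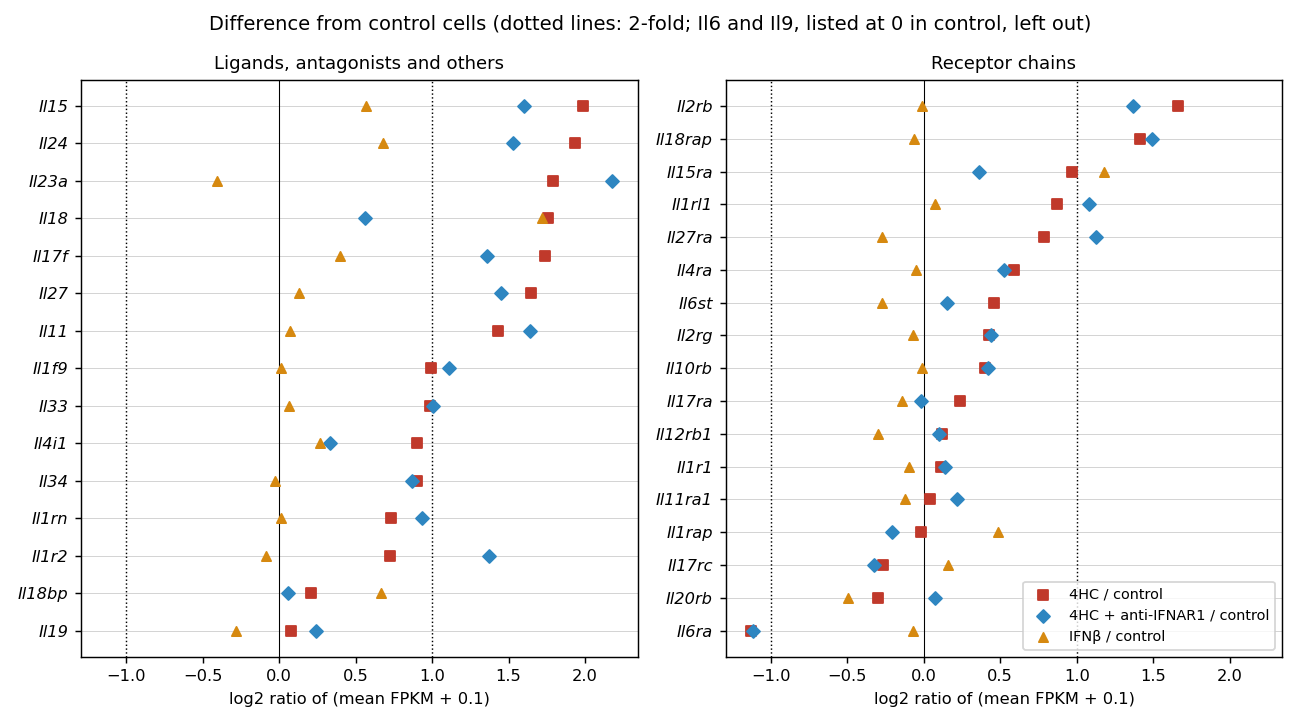
Difference from control (log2 ratio of mean FPKM plus 0.1) for the interleukin genes of at least 0.1 FPKM in a group and above 0 in control, with squares for 4HC, diamonds for 4HC with anti-IFNAR1 antibody and triangles for IFNβ; dotted lines mark 2-fold. Il15 (1.98 with 4HC) and Il24 (1.94) lie farthest to the right among the 4HC squares and Il6ra (-1.13) farthest to the left, while Il18 and Il15ra are the members with IFNβ triangles past 2-fold.

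Beside the levels, upstream sequence was read for the members on which these comparisons turn. Promoters are the 250 bases before the gene start in RefSeq (build GRCm38.p6), which 66 of the 83 members and 6 of the 11 higher members had. Matches, in capitals, were sought on both strands to an interferon response core (GAAA, any 2 bases, GAAA), a kB-like motif (GGG, any 2 bases, TTTCC) and an AP-1 motif (TGANTCA). The interferon response core and the kB-like motif share the letters TTTC, which read GAAA on the opposite strand, and can overlap in part. A match is a description of letters only. Il6 and Il9, both listed at 0 in control, each held a kB-like and an AP-1 match. Il11 held an AP-1 match at 1 of its 2 listed starts, the one shown. Il18 and Il15ra are shown because both were past 2-fold with IFNβ and their means with antibody lay nearer to control than to 4HC, and neither window held the interferon response core. Il15ra had an AP-1 match at 1 of its 2 listed starts, the one shown, and the other held no match to any motif.
Il6, chr5:30012864-30013113, plus strand: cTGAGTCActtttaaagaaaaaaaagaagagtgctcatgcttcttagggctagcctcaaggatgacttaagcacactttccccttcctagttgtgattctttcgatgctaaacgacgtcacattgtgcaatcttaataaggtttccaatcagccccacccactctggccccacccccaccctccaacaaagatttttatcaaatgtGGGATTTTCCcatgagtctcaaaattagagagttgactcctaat
Il9, chr13:56482258-56482507, minus strand: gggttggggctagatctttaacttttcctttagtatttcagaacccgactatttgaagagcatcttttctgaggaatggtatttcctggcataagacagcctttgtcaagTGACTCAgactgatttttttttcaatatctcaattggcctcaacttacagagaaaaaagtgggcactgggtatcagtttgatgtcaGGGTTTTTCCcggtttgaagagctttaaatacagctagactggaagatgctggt
Il11, chr7:4778142-4778391, minus strand: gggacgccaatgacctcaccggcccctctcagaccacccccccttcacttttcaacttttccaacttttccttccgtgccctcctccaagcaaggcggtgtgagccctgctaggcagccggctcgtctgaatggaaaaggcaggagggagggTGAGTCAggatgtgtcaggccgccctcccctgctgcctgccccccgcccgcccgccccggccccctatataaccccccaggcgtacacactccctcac
Il18, chr9:50554450-50554699, plus strand: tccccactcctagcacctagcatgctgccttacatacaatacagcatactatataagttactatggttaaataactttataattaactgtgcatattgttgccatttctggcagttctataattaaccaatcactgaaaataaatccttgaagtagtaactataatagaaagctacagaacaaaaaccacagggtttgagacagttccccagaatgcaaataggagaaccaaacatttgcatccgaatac
Il15ra, chr2:11705462-11705711, plus strand: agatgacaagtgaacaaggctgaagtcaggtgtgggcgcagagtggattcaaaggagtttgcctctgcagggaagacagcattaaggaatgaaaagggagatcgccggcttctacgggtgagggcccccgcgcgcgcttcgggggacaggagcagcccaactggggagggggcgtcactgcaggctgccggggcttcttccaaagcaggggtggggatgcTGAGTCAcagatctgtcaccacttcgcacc

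Counted from the gene start, the first base of the kB-like match was at -44 in Il6 and -54 in Il9. The AP-1 match began at -249 in Il6, -140 in Il9, -98 in Il11 and -30 in Il15ra. Of all 27025 genes with a promoter, 3.46% held the interferon response core, 1.65% the kB-like motif and 7.82% the AP-1 motif. Of the 66 members, 2 (3.03%), 6 (9.09%) and 14 (21.2%) did. Among the 6 higher members with a promoter, 0, 2 and 3 did.

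Of the receptor chains, 2 were higher with 4HC and 1 was lower. Il2rb, the beta chain shared by IL-2 and IL-15, had means of 0.117 FPKM in control, 0.585 with 4HC, 0.459 with antibody and 0.115 with IFNβ (log2 difference 1.66 with 4HC). Il18rap, the accessory chain of the IL-18 receptor, had means of 0.0715 FPKM in control, 0.357 with 4HC, 0.383 with antibody and 0.0638 with IFNβ (log2 difference 1.41). In both genes the 4HC and antibody means were high and the control and IFNβ means low. Il6ra, the ligand-binding chain for IL-6, was the lower member. Its mean was 11.4 FPKM in control, 5.14 with 4HC, 5.20 with antibody and 10.8 with IFNβ, a log2 difference of -1.13 with 4HC. In the mm9 build of the table, Il6ra lies at chr3:89673245-89717084, Il6 at chr5:30339700-30346508 and Il18 at chr9:50373472-50389942.

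Il15ra, the chain that presents IL-15, was just under 2-fold with 4HC. Its mean was 3.75 FPKM in control, 7.43 with 4HC, 4.84 with antibody and 8.60 with IFNβ. The log2 difference was 0.97 with 4HC and 1.18 with IFNβ. Il6st (gp130) had means of 6.61, 9.14, 7.35 and 5.44 FPKM in control, 4HC, antibody and IFNβ cells, and its log2 difference with 4HC was 0.46. Il2rg had means of 4.93, 6.65, 6.70 and 4.69 FPKM in the same order (log2 difference 0.42 with 4HC). Il17rc and Il17ra, the chains that bind IL-17F, were also abundant. Mean Il17rc was 15.3, 12.7, 12.2 and 17.1 FPKM, and mean Il17ra 8.34, 9.85, 8.22 and 7.53 FPKM, with log2 differences of -0.26 and 0.24 for 4HC against control.

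The remaining receptor chains above the limit were within 2-fold of control with 4HC on the scale used. Il1rap, the accessory chain of IL-1 receptors, had means of 3.78, 3.74, 3.27 and 5.34 FPKM in control, 4HC, antibody and IFNβ cells, and a log2 difference of 0.49 with IFNβ. Il10rb, a chain shared by IL-10 family receptors, had means of 2.77, 3.69, 3.75 and 2.74 FPKM. Il11ra1 had means of 2.08, 2.14, 2.43 and 1.91 FPKM, and its near-identical copy Il11ra2 was listed at 0, so how reads were divided between the copies is uncertain. Lower in level were Il12rb1 (1.79, 1.95, 1.92 and 1.44 FPKM), Il4ra (0.932, 1.46, 1.38 and 0.895), Il20rb (0.642, 0.503, 0.681 and 0.427) and Il1r1 (0.521, 0.570, 0.583 and 0.481), in the same group order. Il27ra, the specific chain for IL-27, had means of 0.364, 0.697, 0.912 and 0.284 FPKM. Il1rl1, which encodes the IL-33 receptor ST2, had means of 0.0472, 0.169, 0.212 and 0.0551 FPKM. With 4HC the log2 differences of this last pair were 0.78 and 0.87. The plain ratio of means of Il1rl1 was 3.58, and with 0.01 FPKM added its log2 difference was 1.65, past 2-fold.

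Antagonists and decoys stayed within 2-fold with 4HC on the scale used, or under the limit. Il18bp, which encodes a soluble inhibitor of IL-18, had means of 1.01 FPKM in control, 1.19 with 4HC, 1.06 with antibody and 1.66 with IFNβ. The IL-1 receptor antagonist Il1rn had means of 0.00935, 0.0818, 0.109 and 0.0102 FPKM, and the decoy receptor Il1r2 had means of 0.0124, 0.0854, 0.191 and 0.00581 FPKM. For both, the highest mean was with antibody. Both were under 0.1 FPKM in control and with 4HC, where the plain ratios of means were 8.75 for Il1rn and 6.88 for Il1r2. With 0.01 FPKM added, their log2 differences with 4HC were 2.25 and 2.09, past 2-fold. Il4i1, the oxidase caught by name, had means of 0.305, 0.657, 0.408 and 0.387 FPKM and a log2 difference of 0.90 with 4HC, which was 1.08 with 0.01 FPKM added.

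Ligands were next set beside their partner chains, to see which complete sets were read. For IL-6, IL-11, IL-15 and IL-17F, the ligand and every listed receptor chain were at 0.1 FPKM or more with 4HC. Il33 with its receptor chains Il1rl1 and Il1rap was likewise at that level with 4HC. For IL-27, IL-23, IL-18, IL-9 and IL-24 at least 1 partner was under 0.1 FPKM in every group. Ebi3, the second chain of IL-27, had means between 0.00789 and 0.0712 FPKM, and Il12b, the p40 chain that IL-23 shares with IL-12, between 0 and 0.0148 FPKM. The receptor chain Il23r was listed at 0 in every group. For IL-18, the binding chain Il18r1 had means of 0 in control, 0.0125 with 4HC, 0.00805 with antibody and 0 with IFNβ. Il9r reached 0.0408 FPKM with 4HC, Il22ra1 0.0174 FPKM, and Il20ra, which pairs with Il20rb for IL-24, was listed at 0 in every group. Csf1r, the receptor for IL-34, had means of 0.00435, 0.145, 0.201 and 0.0127 FPKM in control, 4HC, antibody and IFNβ cells.

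**Figure D4:**
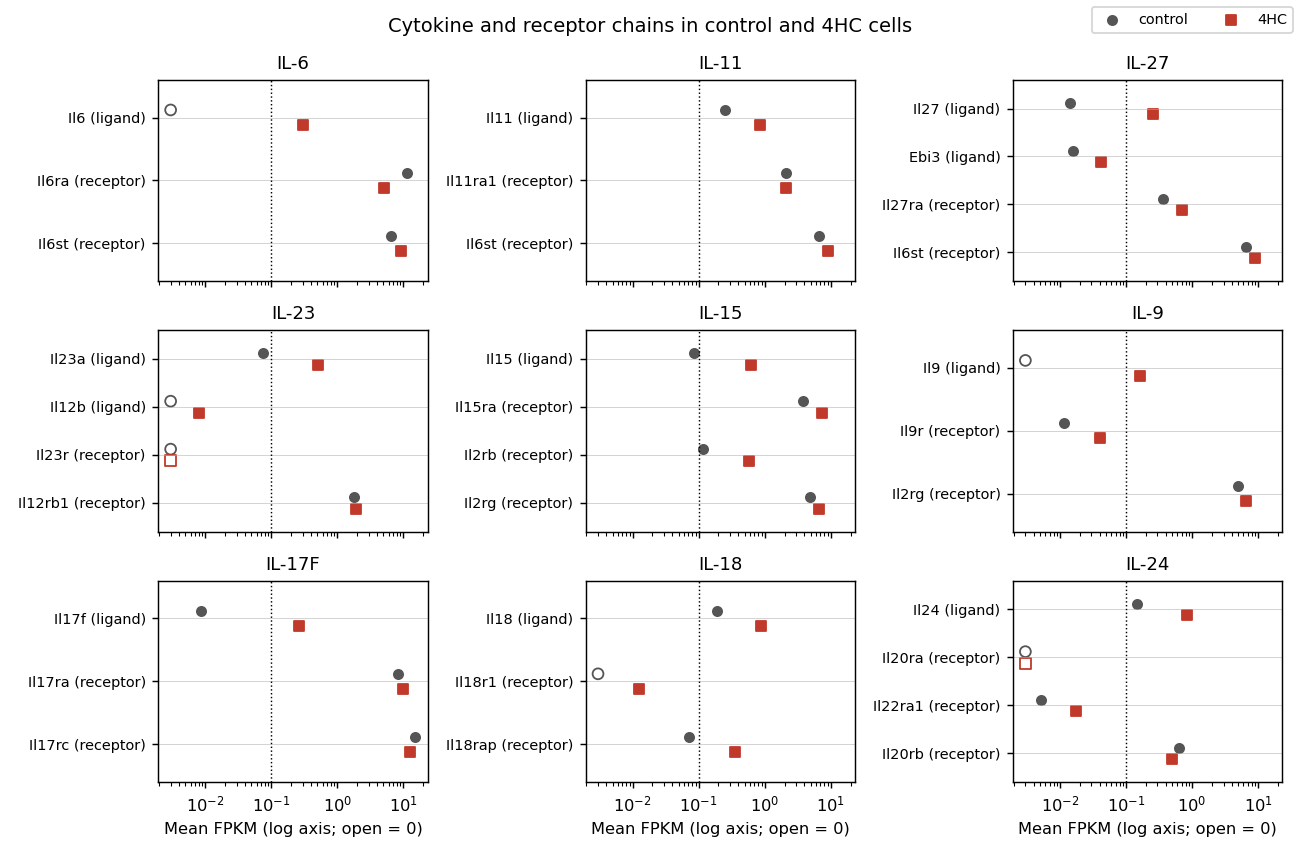
Mean FPKM (log axis) in control (circles) and 4HC cells (squares) of 9 ligands and their partner chains, with open symbols for means listed at 0 and a dotted line at 0.1 FPKM. The 9 ligands are those higher past 2-fold with 4HC, so their symbols lie farther right with 4HC in every panel by choice. The partner chains Ebi3, Il12b, Il18r1, Il9r and Il22ra1 stay left of the line.

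With the antibody present, 15 members were higher than control past 2-fold and 1, Il6ra, was lower. The 15 made up 44.1% of the 34 members compared, beside 6.90% of all genes higher, and the 1 lower stood beside 0.729% of all genes lower. The median log2 difference was 0.71 for members and 0.06 for all genes. Adding 1 FPKM instead of 0.1 left 0 higher and 0 lower, and a minimum of 0.5 FPKM left 4 higher. Of the members compared, 12 passed the limit only through the antibody group, 11 of them past 2-fold. Among the 22 at 0.1 FPKM in control, 4 were higher (18.2%, beside 3.99% of all such genes). Of the 11 members higher with 4HC, 10 were also higher with antibody, the exception being Il18, beside 64.6% of all 931 genes higher with 4HC. Another 5 were past 2-fold with antibody and not with 4HC alone: Il1f9 (log2 difference 1.11), Il33 (1.01), Il1rl1 (1.08), Il1r2 (1.37) and Il27ra (1.13). Il1r2 was under the limit with 4HC alone, and the other 4 had log2 differences of 0.78 to 0.99 there. Genes past 2-fold only with antibody were also found outside the members. Of all genes, 889 were higher with antibody, and these included 64.6% of the 931 higher with 4HC. The 5 are therefore not read as particular to interleukins.

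Set directly against 4HC alone, the antibody group had 0 members higher past 2-fold (beside 0.927% of all genes) and 1 lower (beside 1.93%), which was Il18 with a log2 difference of -1.19. The median over the 34 members was -0.03. Il18 was within 2-fold when 1 FPKM was added. No test was run here, so no count by a p-value can be set beside this 0. Next after Il18 came Il15ra (-0.61), Il4i1 (-0.57), Il24 (-0.41), Il15 (-0.38) and Il17f (-0.38). On the other side were Il1r2 (0.65), Il23a (0.39) and Il20rb (0.37).

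The part of the 4HC difference left with antibody was the difference of the antibody mean from control as a percentage of the difference of the 4HC mean from control. It was 20.0% for Il18, and between 66.6% and 143% for the other 10 members higher with 4HC. The values were 66.6% for Il24, 66.7% for Il17f, 68.8% for Il15, 73.2% for Il2rb, 74.3% for Il9, 78.5% for Il6 and 81.3% for Il27. Il18rap (109%), Il11 (125%) and Il23a (143%) had higher means with antibody than with 4HC alone. The median over the 11 was 74.3%, beside 75.5% over all 931 genes higher with 4HC. For the lower member Il6ra, 99.0% was left. For Il15ra, just under 2-fold with 4HC, 29.8% was left, and for Il34 94.8%.

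**Figure D5:**
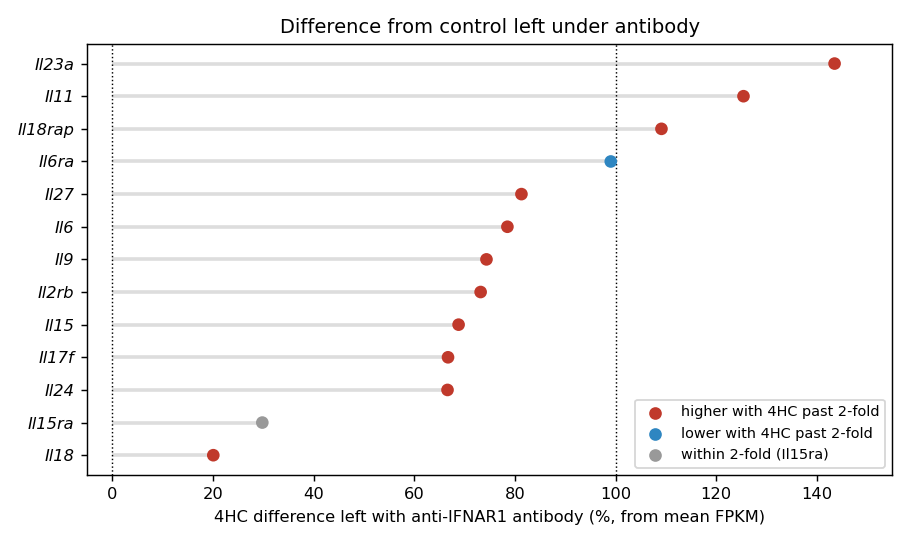
Percent of the 4HC difference from control that was left with anti-IFNAR1 antibody, computed from mean FPKM, for the 12 members past 2-fold with 4HC and for Il15ra. Il18 (20.0%) and Il15ra (29.8%) lie at the low end, Il6ra is at 99.0% and Il23a at 143%, past the dotted line at 100%.

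IFNβ alone, read soon after a short exposure, gave higher means past 2-fold in 3 members: Il6, Il18 and Il15ra. These were 12.5% of the 24 members compared, beside 2.51% of all genes higher. No member was lower past 2-fold (beside 0.768% of all genes), and the median log2 difference was -0.02 for members and -0.04 for all genes. Of the 22 members at 0.1 FPKM in control, 2 were higher (9.09%, beside 1.65% of all such genes). Il6 passed the limit only through the IFNβ group. With 1 FPKM added, 1 of the 3 was past 2-fold, which was Il15ra. Il24 and Il15 were higher by log2 differences of 0.68 and 0.57, and Il18bp by 0.66, all within 2-fold on the scale used. The plain ratios of IFNβ to control means were 2.002 for Il24, 2.054 for Il15 and 1.64 for Il18bp. With 0.01 FPKM added, Il24 and Il15 each had a log2 difference of 0.96. Il6 and Il18 were the 2 of the 11 members past 2-fold with 4HC that were past it with IFNβ too, beside 24.7% of all 931 genes higher with 4HC. Means of Il2rb (0.115 FPKM) and Il11 (0.274) with IFNβ were close to those in control (0.117 and 0.255), and Il9 was listed at 0 in both. Because IFNβ and 4HC cells were collected at different times after exposure, these values stand side by side and the treatments were not compared with each other. The authors' group labels give a shorter time for IFNβ cells than for control cells, and the paper places IFNβ harvest 2 hours after a 4-hour exposure. The sample records list collection at 72 hours for both groups, so the sources differ on time in culture. In the paper's methods, seeding was denser for IFNβ than for drug treatment. Time in culture and density therefore cannot be told apart from IFNβ in its comparison with control.

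Members that lie side by side in the genome were not all past 2-fold. In mm9, 6 members lie within chr1:40141612-40608550 (Il1r2, Il1r1, Il1rl2, Il1rl1, Il18r1 and Il18rap). Of these, 4 reached 0.1 FPKM in a group, and Il18rap alone was past 2-fold with 4HC on the scale used. The plain ratios of 4HC to control means were 4.995 for Il18rap, 3.58 for Il1rl1 and 1.095 for Il1r1. For Il1r2, under the limit with 4HC, the plain ratio was 6.88. With antibody, Il1r2 and Il1rl1 were past 2-fold too. The 4 genes of the IL-10 family on this chromosome lie at chr1:132778650-132921547, where Il24 was past 2-fold, Il19 was not, and Il20 and Il10 stayed under 0.1 FPKM. The T-helper cytokine cluster at chr11:53425962-54080781 (Il4, Il13, Il5 and Il3) had no member at 0.1 FPKM. In the IL-36 cluster of 6 members at chr2:24008691-24207011, Il1f9 and Il1rn passed the limit, Il1rn only with antibody. Il1f9 alone could thus be compared with 4HC, and it was just under 2-fold (log2 difference 0.99, plain ratio of means 6.83).

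Genes that process interleukins or carry their signals were read from lists of partners. Of 16 partners of the IL-1 family, 14 were compared with 4HC and 4 were higher, with a median log2 difference of 0.20. Of all genes 7.25% were higher. By the larger mean, this was 19.6% of those of 0.1 to 1 FPKM and 3.95% of those at 1 FPKM or more. Casp4, an inflammatory caspase, had means of 0.566 FPKM in control, 5.54 with 4HC, 3.84 with antibody and 2.19 with IFNβ (log2 difference 3.08 with 4HC). Casp1, which cleaves the IL-18 precursor, had means of 0.484, 1.39, 1.32 and 0.879 FPKM, and its sensor Nlrp3 had means of 0.00627, 0.154, 0.130 and 0.0177 FPKM. Nlrp3 was under 0.1 FPKM in control and passed the limit only through 4HC, so it had to be higher. The kinase Irak2 had means of 1.56, 3.90, 3.89 and 1.99 FPKM. The adaptor gene Pycard, which links sensors to caspase-1, had a mean of 0.00238 FPKM in control and was listed at 0 in the other groups. With IFNβ, Casp4 (log2 difference 1.78) and the adaptor Myd88 were higher, Myd88 with means of 6.33, 7.69, 5.97 and 14.0 FPKM. The most abundant of the list, Irak1 (26.9 and 22.9 FPKM in control and 4HC cells) and Tab2 (12.8 and 13.9), were within 2-fold.

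Of 19 partners of gp130, the gamma chain and JAK-STAT signalling, 13 were compared and 1 was higher with 4HC, a share near the 7.25% of all genes, with a median log2 difference of 0.03. This was Osmr, a receptor for oncostatin M that pairs with gp130, with means of 0.693 FPKM in control, 1.69 with 4HC, 1.59 with antibody and 2.00 with IFNβ. With IFNβ, Osmr (log2 difference 1.41) and the feedback inhibitor Socs1 (1.05) were higher, and mean Socs1 was 3.67, 6.36, 5.17 and 7.74 FPKM in control, 4HC, antibody and IFNβ cells. Jak1 (21.2 and 21.4 FPKM in control and 4HC cells) and Stat3 (15.1 and 20.8) were among the most abundant. Of 8 partners of IL-17 signalling, 2 were higher with 4HC (beside 7.25% of all genes), with a median log2 difference of 0.62, and 0 were past 2-fold with IFNβ. Tnfaip3, a brake on NF-κB, had means of 0.501, 2.59, 1.76 and 0.498 FPKM (log2 difference 2.16 with 4HC), and Traf5 had means of 1.47, 3.04, 2.20 and 2.93 FPKM (1.01). Cebpb, the most abundant, had means of 49.6, 81.0, 80.3 and 57.4 FPKM, and Traf3, the next, 4.88, 4.81, 4.35 and 4.11 FPKM.

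Markers of other cells were read because several of these genes are typical of leukocytes. The summed level of the 18 leukocyte markers was 0.650 FPKM in control, 2.01 with 4HC, 2.68 with antibody and 0.843 with IFNβ. Of the 5 that reached 0.1 FPKM, 3 were higher with 4HC, beside 7.25% of all genes. By the larger mean, the share was 19.6% of all genes of 0.1 to 1 FPKM and 3.95% of those at 1 FPKM or more. The 3 were S100a8 (0.244 FPKM in control and 1.11 with 4HC), Csf1r and Itgax (0.0126 and 0.148). Csf1r and Itgax were under 0.1 FPKM in control and passed the limit only through 4HC, so they had to be higher. Of S100a8, Cd14 and Cd79a, which were at 0.1 FPKM in control, S100a8 alone was past 2-fold. The defining genes Ptprc, Cd3e and Ncr1 were at or near 0 in every group, as given above. Whether the low interleukin values have a part from such transcripts was not tested. The summed level of 11 fibroblast and endothelial markers was 51.0, 51.4, 46.9 and 43.8 FPKM in control, 4HC, antibody and IFNβ cells.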

How the data were processed

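RNA from 12 libraries of cultured E0771 cells was polyA-selected and sequenced as stranded libraries. According to the submitters' processing notes, TopHat2, featureCounts, edgeR and genome build mm9 were used, with versions not given in the sources used here. The deposited table gives, for each gene, the authors' group mean in FPKM. The same groups recur in later comparisons of the table, and each was read once, from the first comparison that holds it. It also holds the authors' own ratios, fold changes and p-values, which were not used. The planned count model could not be run, because the table holds no counts or values per library. Read depth was not analysed here, so no precision can be stated.

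Log2 ratios of mean FPKM plus 0.1 were computed in Python 3.11.15 (pandas 2.3.3, numpy 2.4.6, matplotlib 3.10.9) for genes of at least 0.1 FPKM in either group, and past 2-fold counted as higher or lower. The calculation was tested on simulated data. Members at 0.1 FPKM in a group were all named, as were pathway partners past 2-fold and the 2 highest of each list. Members and lists were chosen with earlier results of these data known. Other pseudocounts, minimums, folds and scalings were tried.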

Additional observations from a re-analysis of the deposited data

How the results depend on the processing

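No difference past 2-fold changed sign under any alternative run, and none could have done so. A pseudocount keeps the order of the means, minimums and folds leave the sign alone, and the scaling moved ratios too little. The count of members higher with 4HC was 11. It was 15 with a pseudocount of 0.01 FPKM, 0 with 1 FPKM, 6 with a minimum of 0.5 FPKM and 19 at a fold of 1.5. With antibody against control, the 15 higher members became 0 with a pseudocount of 1 FPKM and 4 with a minimum of 0.5 FPKM, and the 1 lower member became 0 with a pseudocount of 1 FPKM. With IFNβ, 3 higher members became 1 with a pseudocount of 1 FPKM and 5 at a fold of 1.5. For antibody against 4HC, 0 higher became 1 with a pseudocount of 0.01 FPKM and 1 at a fold of 1.5, and 1 lower became 0 with a pseudocount of 1 FPKM and 2 at a fold of 1.5. A pseudocount of 1 FPKM exceeds most interleukin means and so compresses their ratios by construction. Scaling each group to a median ratio of 1 over 9483 genes moved ratios by 0.04 or less on the log2 scale and brought Il1f9, Il33 and Il15ra past 2-fold with 4HC (each 1.01), for 14 in all. Of the log2 differences of named members, 10 crossed 2-fold with a pseudocount of 0.01 FPKM and 126 did not, and 30 crossed it with 1 FPKM and 106 did not.

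No paired analysis was possible because only group means were analysed, and leaving out each replicate in turn could not be run for the same reason. The reads behind these low means, and so their error, are unknown.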
